A study of Mus musculus with 12 samples.

Results

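The transcripts of untreated mouse testis were described from 3 of the 12 libraries of the series, which are the libraries labelled Con. The labels give these as testis of ICR mice, an outbred stock, with no treatment, and total RNA was used for the libraries. The other 9 libraries come from mice given busulfan, a drug that kills dividing germ cells, and are not used here. The age of the untreated mice is not given, nor is it stated whether the 3 libraries come from separate animals. The deposited description also speaks of cultured testis without naming a culture step. The columns of the untreated libraries carry the prefix T5WCon, which differs from that of the other groups and is not explained. All 22221 rows of the deposited table were used, each with the FPKM of a gene (fragments per kilobase of transcript, scaled to the depth of the library) in each library, and genes were ranked by their mean over the 3 libraries. FPKM is per length, so levels are set side by side between genes here. The lengths used in the authors' counting are not given, so levels of very short transcripts are less certain. The share of a gene is its part of the summed FPKM of its library. With 1 group there is no contrast, so every value is a description with its spread over 3 libraries and no test was made.

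The testis holds germ cells at every step of sperm formation together with the somatic cells that support them. Spermatogonia divide, spermatocytes pass through meiosis, and round spermatids then elongate into sperm. During elongation histones are replaced first by transition proteins and then by protamines, small basic proteins that pack the sperm DNA, and transcription stops, so many spermatid messages are stored before they are translated. Sertoli cells nurse the germ cells inside the tubules, peritubular myoid cells surround the tubules, and Leydig cells between them make testosterone.

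The libraries were close to each other in total and in range. The summed FPKM was 576093, 570492 and 569055 in replicates 1, 2 and 3. At least 1 FPKM was reached by 12941, 13003 and 12931 rows, and by 12386 rows in all 3 libraries. A level of 1000 FPKM or more was reached by 48 rows in each library and by 45 rows in all of them, while 1653 rows were at 0 throughout. The median over all rows was 2.01 FPKM. Since no counts were used, the depth behind these values is unknown.

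The 4 highest genes all encode proteins of chromatin packing in the spermatid. Prm2, protamine 2, was first with 12998, 12779 and 12824 FPKM in replicates 1 to 3, which is 2.25% ± 0.0087 of the summed FPKM (mean ± SD, n = 3, as for all shares here). Prm1, protamine 1, followed with 11022, 10299 and 10602 FPKM and a share of 1.86% ± 0.054. The transition protein gene Tnp2 stood at 6261, 5543 and 6523 FPKM and its partner Tnp1 at 4970, 4570 and 5378 FPKM. Prm2 differed little between the libraries, while both transition protein genes were lowest in replicate 2 and highest in replicate 3. Even so, the order Prm2, Prm1, Tnp2, Tnp1 was the same in each library, and no library of one of these genes overlapped with a library of the next. Together they held 6.05% ± 0.20 of the summed FPKM.

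Prm1, Prm2 and Tnp2 lie next to each other with a further protamine family member, Prm3. Prm3 itself was far lower, at 654, 640 and 655 FPKM. Among genes ordered along the chromosomes in the RefSeq table, this was the only run of 4 or more neighbouring genes with at least 100 FPKM each, and the only one with at least 150 FPKM each. The 4 neighbours summed to 30267 FPKM, or 5.29% of the total. Tnp1 lies elsewhere.

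The 150 bases before the annotated start of these genes are shown because their levels lead the ranking, together with those of Gapdhs, the sperm form of a glycolytic enzyme, because it holds 2 matches to 1 of the motifs searched. The sequences are from RefSeq on GRCm38.p6, 5′ to 3′ on the minus strand, where all 5 genes lie, at chr16:10792106-10792255 for Prm2, chr16:10796824-10796973 for Prm1, chr16:10788656-10788805 for Tnp2, chr1:73015900-73016049 for Tnp1 and chr7:30743682-30743831 for Gapdhs. Capitals mark a match to TGACGTCA (the cAMP response element), TGATGTCA or TGACTTCA, each searched on both strands. Prm2 and Tnp2 had no match to these letters in the stretch.
Prm2: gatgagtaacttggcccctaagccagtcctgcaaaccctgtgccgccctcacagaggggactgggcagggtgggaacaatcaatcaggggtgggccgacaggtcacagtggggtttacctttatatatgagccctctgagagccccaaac
Prm1: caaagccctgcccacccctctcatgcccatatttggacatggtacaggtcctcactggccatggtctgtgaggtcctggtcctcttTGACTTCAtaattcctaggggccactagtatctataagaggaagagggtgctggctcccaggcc
Tnp2: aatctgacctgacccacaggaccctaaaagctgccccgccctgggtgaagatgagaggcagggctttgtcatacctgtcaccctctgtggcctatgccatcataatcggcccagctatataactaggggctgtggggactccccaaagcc
Tnp1: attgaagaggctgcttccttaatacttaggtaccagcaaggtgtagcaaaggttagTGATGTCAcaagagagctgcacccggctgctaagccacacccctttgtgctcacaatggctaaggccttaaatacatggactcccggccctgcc
Gapdhs: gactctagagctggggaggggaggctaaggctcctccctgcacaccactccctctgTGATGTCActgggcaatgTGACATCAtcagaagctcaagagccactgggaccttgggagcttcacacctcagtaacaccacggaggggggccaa
The match in Prm1 starts 64 bases before the annotated start and that in Tnp1 94 bases before it. Those in Gapdhs, read as TGATGTCA and as its reverse complement TGACATCA, start 94 and 76 bases before the start shown, 1 of 2 starts the table holds.

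Windows from 250 bases before to 50 bases after the annotated start were held for 15892 of the 22221 rows, and TGATGTCA was found in 4.0% of them. The letters TGATGTCA and TGACTTCA were chosen after these sequences were seen. TGATGTCA was found for 9 of the 29 elongating spermatid genes with a window (31.0%) and 5 of the 26 round spermatid genes (19.2%), and for none of the genes with a window in the other 6 germ cell lists described below. Some somatic and other tissue lists with few windows held it too, with 2 of 9 peritubular myoid genes (22.2%), 1 of 4 epididymal genes, 1 of 7 lymphocyte genes and 1 of 14 macrophage genes, so it was not particular to spermatid genes. Besides Tnp1 and Gapdhs, it was present for Gsg1, Akap4, Actl7b and Hmgb4, among others. At least 1 of the 3 motifs was found for 37.9% of elongating spermatid genes and 38.5% of round spermatid genes, against 8.05% of all rows with a window. A gene can hold more than 1 of them, as Gsg1 holds both TGATGTCA and TGACTTCA. The cAMP response element TGACGTCA itself was found for 1 of the 29 elongating spermatid genes (3.4%) and 2 of the 26 round spermatid genes (7.7%). Its share over all rows with a window was 2.8%. By rank alone, TGATGTCA was present for 9 of the 84 rows with a window at ranks 1 to 100 (10.7%) and 34 of the 313 at ranks 101 to 500 (10.9%). The windows of elongating spermatid genes held a median of 3 CpG dinucleotides against 15 over all rows, and those of round spermatid genes held 9. Low medians were found for other lists as well, with 3 for Leydig cells and macrophages, 4 for lymphocytes and red blood cells, 2 for adipocytes and 1.5 for epididymis. A match describes the letters in the window and is not a site of binding.

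The next genes in the ranking were a mix of sperm genes and genes with a wider use. Ubb, a gene for polyubiquitin, followed Tnp1 with 4424, 4238 and 4094 FPKM. Smcp, which encodes a cysteine-rich protein of sperm mitochondria, reached 3177, 3237 and 3282 FPKM, and Oaz3, the antizyme of spermatids that limits polyamine synthesis, 3229, 3042 and 3070 FPKM. These 2 genes overlapped between libraries, so their order is not fixed. Col19a1, the chain of type XIX collagen, was eighth with 2623, 3061 and 2841 FPKM, far above the interstitial collagen genes Col1a2 and Col6a1 named further on. Meig1, needed for sperm head and tail shaping, stood at 2530, 2777 and 2862 FPKM and was lowest in replicate 1. Gstm5, a glutathione S-transferase, completed the first 10 with 2680, 2621 and 2580 FPKM.

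Ranks 11 to 20 ran from 2572 ± 96.0 FPKM for Dbil5, a testis relative of the diazepam binding inhibitor, to 1587 ± 85.0 FPKM for Gpx4, the selenoenzyme that also builds the sperm midpiece. Between them stood Ldhc, the sperm form of lactate dehydrogenase, at 2507 ± 27.4, Tmsb10, a thymosin that binds actin, at 2217 ± 122, and Odf2, of the outer dense fibres of the tail, at 2070 ± 55.6 FPKM. Fabp9, a fatty acid binding protein of the sperm head, reached 1948 ± 92.6, Ybx2, which coats stored germ cell messages, 1790 ± 27.2, Gsg1 1754 ± 105, Tcp11 1728 ± 97.2 and the ribosomal protein gene Rpl41 1651 ± 87.3 FPKM. From Ybx2 to Gpx4, each gene differed from the next by less than the larger of their SDs, so the order within that stretch is not fixed.

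Ranks 21 to 30 held Tcte3, a dynein light chain gene, with 1733, 1797 and 1071 FPKM, then Eef1a1, a translation elongation factor, at 1529 ± 14.1, Dynlt1b at 1398 ± 121, Pebp1 at 1371 ± 43.5 and Phf7, a chromatin reader of spermatids, at 1368 ± 42.0 FPKM. Odf1 followed at 1355 ± 72.2, Gapdhs at 1355 ± 71.1, Phkg2, a subunit of phosphorylase kinase, at 1298 ± 43.7, the predicted gene Gm5617 at 1264 ± 42.9 and the testis tubulin Tuba3a at 1234 ± 17.4 FPKM. Tcte3 was low in replicate 3 and was the only 1 of the 30 genes with a coefficient of variation (CV, the SD as a percentage of the mean) over 10%, at 26.2%. The median CV of the 30 was 3.81%. Leaving out any 1 library left the same 30 genes in place.

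**Figure D1:**
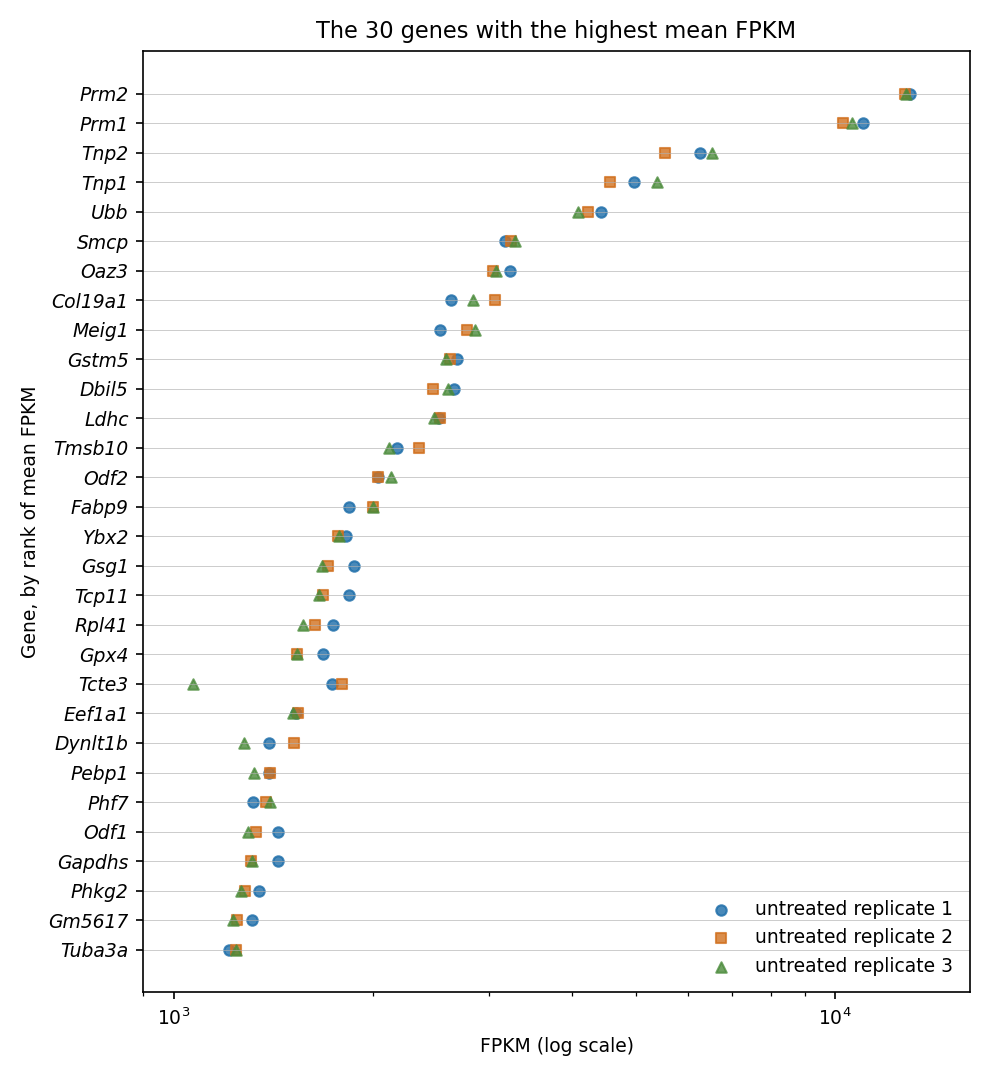
FPKM (log axis) of the 30 genes with the highest mean, one row per gene in rank order, with one point for each untreated library. Prm2 and Prm1 lie far above all other genes in each library, the 3 points of most genes nearly coincide, and Tcte3 stands out by its low value of 1071 FPKM in replicate 3.

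Of the 30 genes, 13 belong to the germ cell lists used here and held 9.47% of the summed FPKM, and 9 of these are elongating spermatid genes with 7.93%. A further 2 belong to lists of general cell machinery, and the other 15, with 5.22%, are in no list. Among the top 100 genes, 22 belong to germ cell lists, 15 of them to elongating spermatids, 8 to general lists and 70 to no list, and none belongs to a somatic list. Over all 22221 rows, 196 belong to germ cell lists, 34 of them to elongating spermatids, and 101 to somatic lists. With so few somatic members in the whole table, their absence from 100 rows says little by itself.

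The summed FPKM was spread widely beyond these leaders. The top 10 genes held 9.33% ± 0.18, the top 30 15.2% ± 0.12, the top 100 25.4% ± 0.24 and the top 1000 62.0% ± 0.36. By the mean, 543 genes made up 50% of the total, and 531, 553 and 539 genes did so in replicates 1, 2 and 3. The top 5000 genes held 92.3% ± 0.14. Replicate 2 was the least concentrated library at each of these steps, by small margins.

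**Figure D2:**
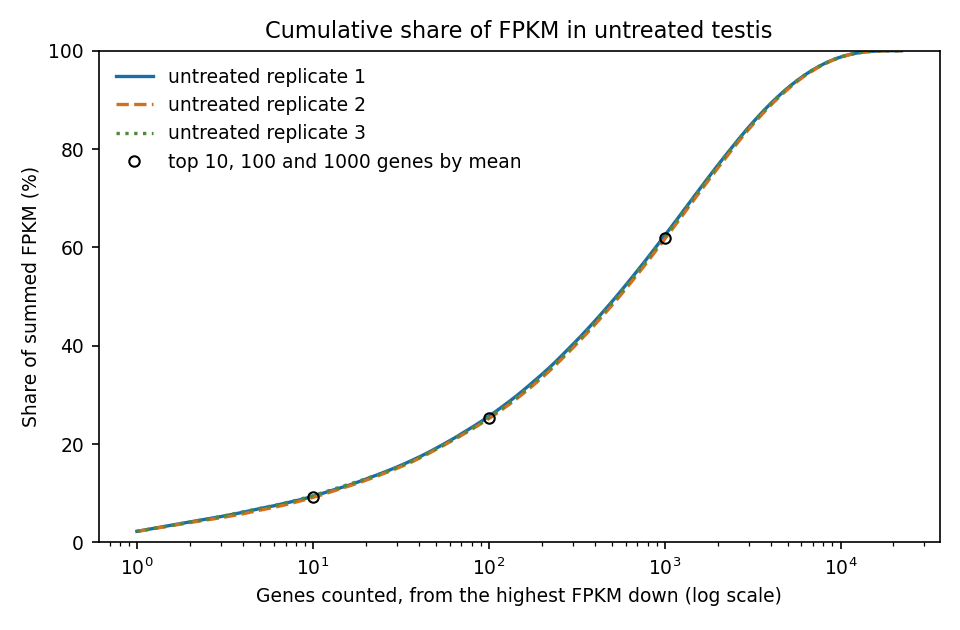
Share of the summed FPKM (vertical axis, %) held by the genes from the highest FPKM down (horizontal axis, log scale), with one line for each untreated library ranked on its own values, and circles for the top 10, 100 and 1000 genes ranked by mean. The 3 lines nearly coincide and pass about 9.33% at 10 genes, 25.4% at 100 and 62.0% at 1000.

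High rank went with short transcripts. The median annotated transcript length was 831 bases for ranks 1 to 30, 1051 for ranks 31 to 100, 1139 for ranks 101 to 500, 1233 for ranks 501 to 1000, 1838 for ranks 1001 to 6000 and 2288 for ranks 6001 to 12000. Further down only 79.8% of rows had a length, so no value is read there. When FPKM was multiplied by transcript length, which weighs a gene by its bases and not by its molecules, Col19a1 came first with 1.19% of the product, Prm2 second with 0.917% and then Ubb with 0.559%. Dnah8, a long axonemal dynein chain gene, moved from rank 257 to 4, and Odf2 from rank 14 to 6. Prm1 then stood at rank 5, Tnp2 at 7 and Tnp1 at 25.

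Germ cell stages were compared through 8 gene lists with 196 members in the table, and somatic cells of the testis through 6 lists with 101 members. The germ cell lists held 14.1% ± 0.25 of the summed FPKM and the somatic lists 0.420% ± 0.014, a ratio of 32.3, 33.5 and 34.7 in replicates 1 to 3. Sums depend on which genes are listed, so medians are given beside them. The median member of the germ cell lists stood at 66.7 FPKM and of the somatic lists at 3.79 FPKM, against 2.01 FPKM over all rows. In bulk tissue, fewer cells of a type and less RNA per cell cannot be told apart, so these shares are not shares of cells.

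**Figure D3:**
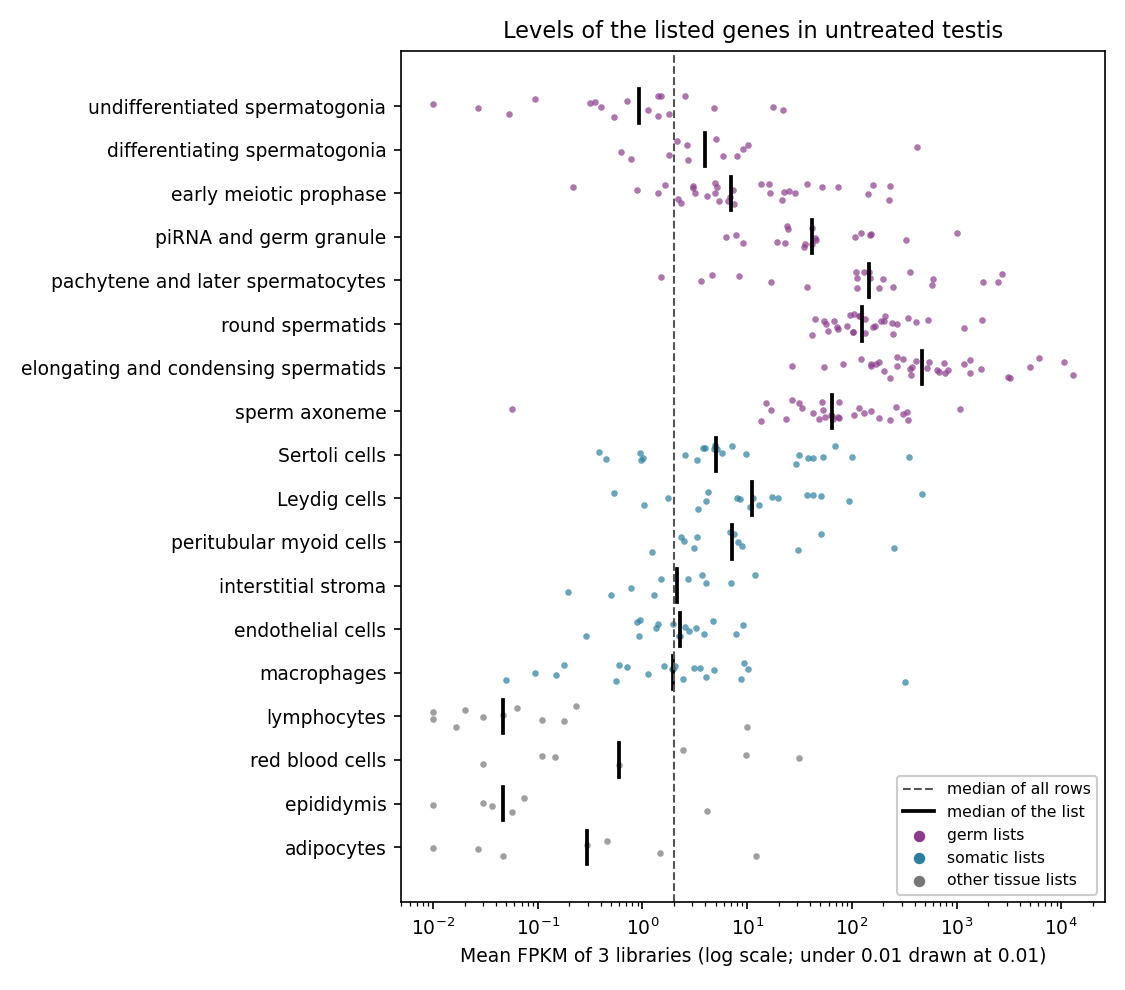
Mean FPKM over 3 untreated libraries (horizontal log axis, values under 0.01 drawn at 0.01) of each gene of the germ cell, somatic and other tissue lists, one point per gene, with a black bar at the list median and a dashed line at the median of all rows (2.01 FPKM). Medians of the germ cell lists range from 0.93 FPKM for undifferentiated spermatogonia to 465 FPKM for elongating spermatids, and single genes such as Aif1, Dmrtb1 and Actg2 stand far to the right of their lists.

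Genes of undifferentiated spermatogonia, the stem and progenitor cells, were among the lowest of the germ cell genes. The 18 members held 0.0099% of the summed FPKM with a median of 0.93 FPKM. Uchl1, a deubiquitinase, stood at 22.3, 24.0 and 20.2 FPKM and held 39.0% of the list, and Id4, an inhibitor of differentiation, at 15.9, 18.7 and 18.0 FPKM. Etv5, a transcription factor of self-renewal, reached 4.80 ± 0.39 FPKM, and 9 of the 18 members were below 1 FPKM. Over all rows, 12956 of 22221 reached 1 FPKM in the mean, so this count is near the share in the whole table.

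The 12 genes of differentiating spermatogonia had a median of 3.92 FPKM and a share of 0.082% ± 0.0021. Dmrtb1, a transcription factor of the switch from mitosis to meiosis, alone gave 89.5% of that sum, with 415, 413 and 430 FPKM. The next were Esx1 at 10.2 ± 2.4 and Dmrt1 at 9.21 ± 0.63 FPKM. Without Dmrtb1 the list held 0.0086%, with a median of 2.74 FPKM. The undifferentiated list without its own highest member, Uchl1, held 0.0061%, with a median of 0.72 FPKM.

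Early meiotic prophase, when homologous chromosomes pair and recombine, was represented by 32 genes with a median of 7.07 FPKM and a share of 0.199% ± 0.014. Syce1 and Syce2, structural genes of the synaptonemal complex, which zips homologues together, led the list, while other genes of the complex stood lower. Syce3 was at 142 and Sycp3 at 73.7 FPKM. Sycp2 was at 22.7, Sycp1 at 21.4, Tex12 at 13.4 and Six6os1 at 3.07 FPKM. Syce1 stood at 216, 235 and 245 FPKM and Syce2 at 206, 230 and 239 FPKM, and the meiotic cohesin gene Stag3 at 160, 160 and 162 FPKM. Syce1 and Syce2 were lowest in replicate 1, and so were most of the list: 27 of 32 members were lower in replicate 1 than the mean of the other libraries, with a median log2 difference of -0.20. Over all 6184 rows of at least 10 FPKM, 2797 were lower in replicate 1 and the median log2 difference was 0.017. That level was reached by 14 of the 32 members here and by 24 of the 101 members of the somatic lists. For the lower members these rows are thus a comparison at an unlike level.

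The 19 genes of the piRNA pathway and germ granules, which silence transposons, had a median of 41.6 FPKM and held 0.388% ± 0.012. Mael gave 45.1% of this sum, with 971, 1025 and 1006 FPKM. Gtsf1, which helps PIWI proteins cut their targets, stood at 334, 321 and 336 FPKM and the scaffold gene Tdrd6 at 153 ± 1.6 FPKM. All 19 members exceeded 1 FPKM, a level that 12956 of all 22221 rows reached in the mean. Of the 19, 18 were higher in replicate 2 than the mean of the other libraries, by a median log2 difference of 0.099. Over the 6184 rows of at least 10 FPKM, 3475 were higher in replicate 2 and 2709 lower, with a median log2 difference of 0.014.

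The 21 genes of pachytene and later spermatocytes held 1.75% ± 0.039, with a median of 146 FPKM. Meig1, Ldhc and Ybx2, whose values are given above, made up most of the sum. The list was also uneven at its low end, where H1f6, the testis linker histone, was listed at 1.76, 1.43 and 1.35 FPKM. The median of this list was 20.5 ± 4.0 times that of early prophase.

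All 30 round spermatid genes exceeded 10 FPKM, a level that 6184 of all 22221 rows reached. They held 1.29% ± 0.017 with a median of 126 FPKM. Gsg1 led with 1874, 1713 and 1676 FPKM, before Dkkl1, an acrosomal protein gene, with 1202, 1171 and 1142 FPKM and Actl7b, an actin-like gene of the spermatid, with 563, 542 and 507 FPKM. These 3 genes were each highest in replicate 1 and lowest in replicate 3. The lowest of the 30 members stood at 41.7 FPKM.

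The elongating and condensing spermatid list stood above all other lists. Of its 35 genes, 34 are in the table, and H1f9 was not analysed here. They held 9.72%, 9.32% and 9.83% of the summed FPKM in replicates 1 to 3, with a median of 465 FPKM. All of them exceeded 10 FPKM, against 6184 of 22221 over all rows. Their sum was 7.46 ± 0.22 times that of the round spermatid list and their median 3.73 ± 0.19 times. Prm2 gave 23.4% of the sum and Prm1 19.3%, and without Prm2 the list still held 7.37% with a median of 411 FPKM. Replicate 2 was the low library here: 28 of 34 members were lower in it than the mean of the others, with a median log2 difference of -0.048, against 2709 of the 6184 rows of at least 10 FPKM.

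The sperm axoneme, the microtubule core of the tail, was represented by 30 genes with a median of 65.3 FPKM and a share of 0.714% ± 0.0077. With FPKM multiplied by transcript length the share was 1.54%, above the 1.33% of the pachytene list and the 1.28% of the round spermatid list, which both stood above it by FPKM. Rsph1, of the radial spokes, stood at 1065, 1107 and 1074 FPKM, Dnah8 at 280, 366 and 379 FPKM and Tekt1, of the tektin filaments, at 366, 321 and 330 FPKM. Dnah8 was lowest in replicate 1 and Tekt1 highest there. The radial spoke gene Rsph4a, which is used in cilia, was the lowest member, at 0.06, 0.05 and 0.06 FPKM. The other 29 exceeded 10 FPKM, against 6184 of 22221 over all rows.

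The 24 Sertoli cell genes held 0.136% ± 0.011 with a median of 5.03 FPKM. Clu, a secreted chaperone, led with 385, 346 and 325 FPKM and gave 45.3% of the list. Ctsl, a protease, stood at 103, 107 and 94.6 FPKM and Aard at 77.4, 65.8 and 65.5 FPKM. Of the 24 genes, 20 were higher in replicate 1 than the mean of the other libraries and 19 were lower in replicate 3, with median log2 differences of 0.12 and -0.17. Of the 6184 rows of at least 10 FPKM, 3387 were higher in replicate 1 and 3507 were lower in replicate 3, the latter with a median log2 difference of -0.020. General lists were lower in replicate 3 as well, with 67 of 85 ribosomal protein genes, 71 of 87 oxidative phosphorylation genes and 32 of 39 proteasome genes. The sum of the elongating spermatid genes was 71.2 ± 6.3 times that of the Sertoli cell genes.

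The 18 Leydig cell genes had the highest median of the somatic lists, 11.1 FPKM, and held 0.138% ± 0.0054. Insl3, the hormone of testis descent, gave 58.6% of the list with 450, 465 and 475 FPKM. Cyp17a1, an enzyme of androgen synthesis, varied more, with 113, 74.0 and 95.7 FPKM, and Ptgds, a prostaglandin synthase, stood at 54.0, 47.1 and 50.9 FPKM. Replicate 1 was higher than the mean of the others for 16 of the 18 genes, though not for Insl3. It was higher for 3387 of the 6184 rows of at least 10 FPKM, a level that 10 of the 18 genes reached.

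The 3 further somatic lists below each held a smaller share than the Sertoli or Leydig cell list. The 12 genes of peritubular myoid cells held 0.066% with a median of 7.16 FPKM, and Actg2, a smooth muscle actin gene, gave 66.7% of that with 260, 244 and 250 FPKM. Myl9 reached 51.1 ± 7.0 and Acta2, the usual marker actin of myoid cells, 30.3 ± 4.0 FPKM, and 11 of the 12 genes were higher in replicate 2 and 11 lower in replicate 3 than the mean of the others, against 3475 and 3507 of the 6184 rows of at least 10 FPKM. The 10 stromal genes had a median of 2.12 FPKM, with Dcn, a matrix proteoglycan, at 12.0 ± 0.32, giving 35.4% of the list, Col1a2 at 7.06 ± 0.64 and Col6a1 at 4.04 ± 0.19 FPKM. The 16 endothelial genes had a median of 2.27 FPKM, with the junction gene Cldn5 at 9.06 ± 1.9, Sox17 at 7.85 ± 0.39 and Eng at 4.73 ± 1.1 FPKM, and 15 of the 16 were lower in replicate 3 than the mean of the others. None of these 16 genes reached 10 FPKM, against 6184 of 22221 over all rows.

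The macrophage list was carried by 1 gene. Aif1 stood at 310, 310 and 339 FPKM and gave 84.8% of the sum of 21 genes. The next were C1qb, a complement subunit, at 10.3 ± 0.97 and Lyz2, lysozyme, at 9.37 ± 1.8 FPKM, and the median was 1.95 FPKM. Without Aif1 the list held 0.010%.

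Genes of tissues that could be carried along were mostly low, and 7 of 31 reached 1 FPKM, against 12956 of 22221 over all rows. Some of the 7 stood well above the median of all rows. The lists of lymphocytes, red blood cells, epididymis and adipocytes together held 0.013% ± 0.0012. Cd3d, a T cell receptor subunit, gave 93.4% of the lymphocyte list at 9.92 ± 0.66 FPKM, while Cd4 stood at 0.23 FPKM and Nkg7 was listed at 0 in each library. Among the others, Hba-a1, alpha globin, reached 38.7, 21.1 and 34.0 FPKM, the heme synthesis gene Alas2 9.75 ± 1.4 and Hbb-bs 0, 5.27 and 2.07 FPKM. Rnase10 was listed at 4.12 ± 0.096 FPKM as the highest epididymal gene, with 95.4% of that list, before Defb42 at 0.073 and Crisp1 at 0.057 FPKM, and Spink13 was listed at 0. Adipoq stood at 12.1 ± 0.76, Retn at 1.48 ± 0.16 and Fabp4 at 0.46 ± 0.16 FPKM, and Cfd was listed at 0. A part of other tissue in these libraries was not tested.

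Many germ cell genes are copies that serve in place of a widely used relative. Several of those relatives, such as Pgk1, Pdha1, Rpl10, Rpl39 and Slc25a5, are X-linked genes, and others, such as Cycs and Cox8a, are not. A link between X-linkage and the ratios below was not tested. In 16 of 21 pairs of a germ cell gene and its relative, the germ cell gene was higher in every library. The pairs were picked by hand with earlier results of these data known. The count thus describes these pairs only and depends on the relative chosen. Among these pairs the largest ratio that could be computed was that of Pdha2 to Pdha1, the catalytic subunits of pyruvate dehydrogenase, with 109, 115 and 102 FPKM against 1.55, 1.58 and 1.25 FPKM, at 75.1 ± 6.2. Pgk2 stood at 594, 577 and 610 FPKM against 9.14, 8.16 and 8.11 FPKM for Pgk1, both phosphoglycerate kinases, a ratio of 70.3 ± 5.1. In both pairs the ratio was lowest in replicate 1 and highest in replicate 3.

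The testis cytochrome c gene Cyct reached 112 ± 7.2 FPKM against 3.43 ± 0.24 for Cycs, 32.6 ± 1.3 times as much. Tuba3a was 22.9 ± 1.9 times Tuba1a (54.2 ± 4.0 FPKM). Among respiratory chain subunits, Cox8c stood at 688 ± 23.7 FPKM, 21.6 ± 0.77 times Cox8a (31.9 ± 1.7 FPKM), and Cox6b2 at 426 ± 34.4 FPKM, 7.95 ± 0.47 times Cox6b1 (53.8 ± 5.4 FPKM). Ribosomal protein pairs showed the same order. Rpl39l had 253 ± 11.5 FPKM and was 14.7 ± 2.2 times Rpl39 (17.5 ± 3.0 FPKM), and Rpl10l had 158, 169 and 143 FPKM where Rpl10 was listed at 0, 11.6 and 5.81 FPKM.

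The other 8 pairs with a higher germ cell gene had ratios of the mean from 9.24 down to 1.47. Papolb, a poly(A) polymerase, was 9.24 ± 0.44 times Papola, and Hspa2, a meiotic chaperone, 8.65 ± 0.75 times Hspa8. Gapdhs was 7.26 ± 0.31 times Gapdh, which itself stood at 187 ± 16.9 FPKM, and Clgn, a chaperone of sperm membrane proteins, 7.12 ± 0.099 times Canx. Ldhc was 3.78 ± 0.082 times Ldha (664 ± 17.2 FPKM), the proteasome subunit Psma8 3.41 ± 0.44 times Psma7, Ybx2 2.03 ± 0.14 times Ybx1 (886 ± 47.7 FPKM) and Actl7b 1.47 ± 0.074 times Actb (365 ± 7.2 FPKM). Ldha, Ybx1 and Actb were themselves among the higher genes of the table. A further actin gene, Actg1, stood at 628 ± 33.7 FPKM, above Actl7b in each library.

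In 4 pairs the relative was higher in every library. Calr stood at 340 ± 6.8 against 71.2 ± 3.2 FPKM for Calr3, both calreticulins, and Aldoa at 352 ± 20.8 against 71.7 ± 0.41 FPKM for the aldolase gene Aldoart1. H1f0 stood at 7.40 ± 0.93 against 1.51 ± 0.22 FPKM for H1f6. Eif4e, the cap-binding translation factor, stood at 108 ± 2.9 FPKM, while Eif4e1b, its germ cell form, was listed at 0.24, 0.13 and 0.10 FPKM. The ADP/ATP carrier genes Slc25a31 and Slc25a5 overlapped, with 19.0, 22.7 and 21.4 against 23.7, 19.7 and 19.5 FPKM. Reads of closely similar copies may have been divided between them by the authors' counting, which was not tested.

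**Figure D4:**
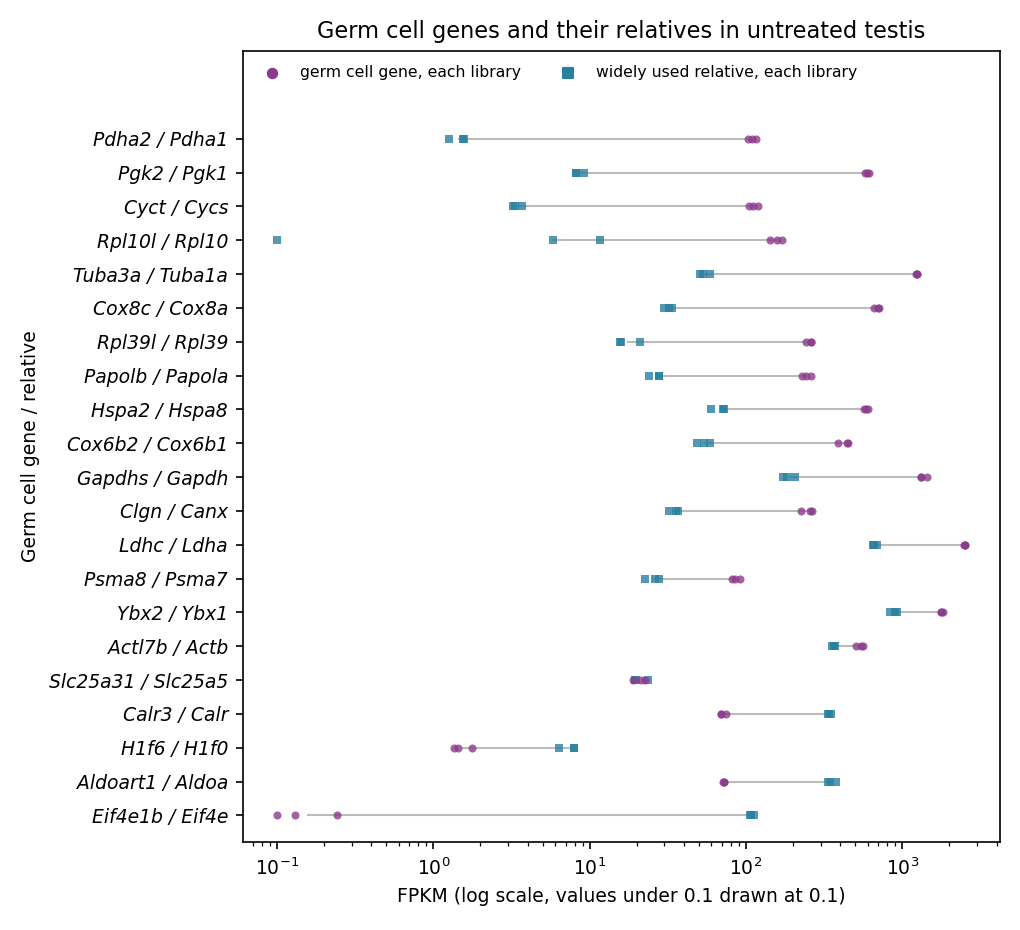
FPKM (log axis, values under 0.1 drawn at 0.1) of 21 germ cell genes (circles) and their widely used relatives (squares), one point per untreated library, with the pairs ordered by the ratio of their means and a line joining the means. The germ cell gene lies to the right in all libraries in 16 pairs, from Pdha2 down to Actl7b, and to the left in 4.

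Across all 22221 rows, log2(FPKM + 1) correlated between libraries with Pearson's r of 0.993 for replicates 1 and 2 and 0.994 for the other 2 combinations, and Spearman's rho was 0.980, 0.980 and 0.981. These are correlations across genes, which are not independent replicates. The spread depended on the level. The median CV was 41.7% below 1 FPKM, 10.8% from 1 to 10 FPKM, 6.09% from 10 to 100 FPKM, 4.43% from 100 to 1000 FPKM and 3.57% above that.

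Of the 6184 rows of at least 10 FPKM in the mean, 68 (1.10%) differed 2-fold or more between the highest and the lowest library. As many as 34 of these 68 were rows that the authors call new genes, which make up 237 of the 6184 rows. The share was thus 14.3% for new genes and 0.572% for the 5947 rows with a Gene ID, and the median CV was 11.2% and 5.56%.

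Among the 5621 genes of at least 10 FPKM with an established symbol, the highest CV was that of Znrd1as, a transcript named as antisense to Znrd1, with 0.21, 53.4 and 1.41 FPKM. Coil, the Cajal body protein gene, was high in replicate 1 alone, with 36.1, 2.30 and 0.25 FPKM, and the GTPase gene Gnl1 in replicate 2 alone, with 2.80, 35.3 and 3.48 FPKM. Haspin, a germ cell histone kinase gene that lies within an intron of another gene, had 0.87, 66.0 and 27.9 FPKM. No single library was the odd one for all of these genes. The use of strand in the authors' counting is not given, so reads of overlapping and antisense genes cannot be told apart, and these values are uncertain.

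Of the ribosomal protein genes, Rps28 and Rpl26 were among the 10 most variable genes, while the median CV of the 85 genes of that list was 5.31%. Rps28 had 141, 12.6 and 334 FPKM and Rpl26 5.28, 167 and 185 FPKM. The remainder of the 10 most variable genes were Adam6a with 7.27, 23.3 and 6.81 FPKM, Lmntd1 with 5.85, 13.5 and 26.1 FPKM, the beta globin gene Hbb-b1 with 20.3, 3.54 and 13.9 FPKM and Rab11b, of vesicle recycling, with 10.1, 7.65 and 24.6 FPKM. Hbb-b1 was high in the libraries where Hbb-bs was low, and the 2 are near-identical globin genes. The alpha globin gene Hba-a1, with 38.7, 21.1 and 34.0 FPKM, was lowest in replicate 2 like Hbb-b1, while Alas2 was lowest in replicate 3. A division of reads between copies and a difference in blood content were not tested.

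At the other end, the 5 steadiest genes were Mesd, a chaperone of lipoprotein receptors, with 46.6 FPKM in each library, Hsf5, a heat shock factor of spermatocytes, with 93.6, 93.6 and 93.7 FPKM, the RNA demethylase gene Alkbh5 with 12.8, 12.7 and 12.8 FPKM, Gde1 with 88.0, 88.2 and 88.0 FPKM and Gtf3c2, a subunit of a polymerase III factor, with 23.4 FPKM in each. Their CVs ran from 0.012% to 0.17%, and they were chosen as the lowest of 5621, so these values describe the extreme of the table.

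Tcte3 was set beside Gm3448 and Gm3417, which were chosen because their values ran opposite to it, so the sum below only restates that. Tcte3 had 1733, 1797 and 1071 FPKM, Gm3448 61.0, 131 and 579 FPKM and Gm3417 35.8, 39.4 and 149 FPKM. Where Tcte3 was low in replicate 3, the other 2 were high. Their sum was 1830, 1968 and 1800 FPKM, with a CV of 4.81%, against 26.2%, 109% and 86.2% for the single genes. In 3 of 4 other sets of copies the sum was not steadier than the higher copy alone: the CV was 3.42% for Tuba3a with Tuba3b against 1.41% for Tuba3a, 4.04% for Rpl34 with Rpl34-ps1 against 3.77% for Rpl34-ps1, and 11.9% for Hsd3b1 with Hsd3b6 against 10.5% for Hsd3b1, while Rps6 with Rps6-ps4 had 0.19% against 0.30% for Rps6-ps4. A division of reads between copies was not tested.

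**Figure D5:**
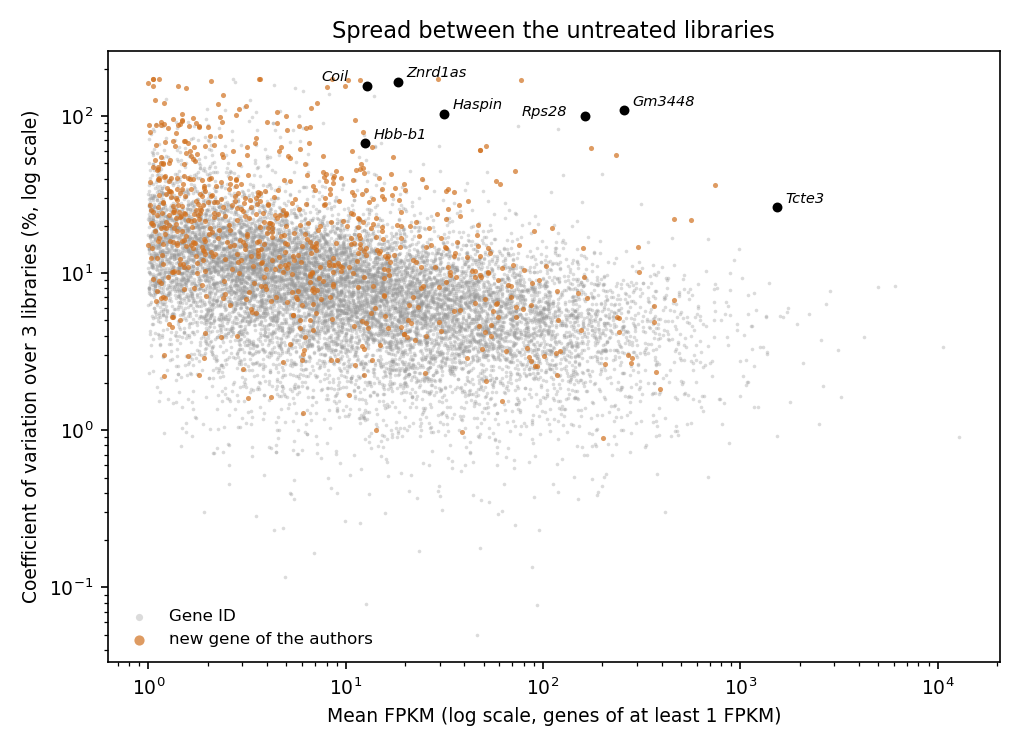
CV over the 3 untreated libraries (vertical log axis, %, values under 0.05 drawn at 0.05) against mean FPKM (horizontal log axis) for each row of at least 1 FPKM, in grey for rows with a Gene ID and in orange for rows the authors call new genes, with black points for some of the most variable genes named in the text. The CV falls as the level rises, and Tcte3 (26.2%) stands above all other genes of at least 1000 FPKM.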

How the data were processed

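RNA from untreated testis was measured in 3 libraries. The authors deposited 1 table of FPKM with 12 columns, per the file headers; the 3 Con columns were used and the other 9 were not. The aligner, counter, annotation and genome build were not given in the sources used here. Low values showed no steps of 1 read, since at most 1.09% of 4585 genes had the commonest ratio between libraries, so depth and counting error are unknown. FPKM is relative to the mapped total of a library, so a gain of one class lowers all others.

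Groups and replicate numbers came from the labels. Symbols were attached through Gene IDs in the RefSeq table (GRCm38.p6), which matched 20141 of 20288 IDs; 1933 rows are new genes of the authors. Transcript lengths are the median per gene in GENCODE and matched 86.8% of rows. Of 572 listed genes 556 are in the table, 3 by an older symbol. No mitochondrially encoded gene of the list was analysed here. Shares, medians, CVs and correlations of log2(FPKM + 1) were computed with pandas 2.3.3 and scipy 1.17.1, and the scripts were tested on simulated data.

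The lists and pairs were chosen with earlier results of these data known. Named genes are the 30 highest, the 3 highest of each list with any member that holds over 33.3% of its list or is at 0 throughout, both members of each pair, and the 10 most and 5 least variable of at least 10 FPKM; other named genes were chosen after their values were seen. A gene that this rule names is not reported here. Alternatives left out libraries, rows or the highest list members, or changed the pseudocount or scaling.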

Additional observations from a re-analysis of the deposited data

How the results depend on the processing

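Without any 1 library, the share of the top 10 genes ran from 9.25% to 9.43%, of the top 100 from 25.3% to 25.5%, of the germ cell lists from 13.9% to 14.2%, of the somatic lists from 0.412% to 0.424% and of elongating spermatid genes from 9.52% to 9.77%. The lowest Pearson's r ran from 0.993 to 0.994 and the lowest rho from 0.980 to 0.981. The median CV over all rows not at 0 throughout was 12.3% with all libraries and ran from 8.82% to 10.9% without any 1 of them. A CV from fewer libraries tends to be lower by its construction, so these medians are not on one scale. With only rows that carry a Gene ID, these shares were 9.61% (top 10), 26.1% (top 100), 14.5% (germ cell) and 9.91% (elongating). Without the highest member of each list, the germ cell lists held 11.8%, the elongating list 7.37% and the somatic lists 0.339%. With FPKM multiplied by transcript length, an alternative chosen after seeing the data, the values were 5.63% (top 10), 20.5% (top 100), 9.65% (germ cell), 4.67% (elongating) and 0.284% (somatic); this weighting favours long transcripts by its construction. With rows of at least 1 FPKM, r was 0.988, rho 0.984 and the median CV 7.89%, and with rows of at least 5 FPKM they were 0.984, 0.983 and 6.34%. A pseudocount of 0.1 gave an r of 0.986. Of the 21 other list shares, none moved by more than 1.5 times when a library was left out, 12 did without the highest member and 11 with the weighting by length. No paired analysis was possible because only 1 group was used and no result comes from a test. Unknown depth limits what can be said of genes below 1 FPKM.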

Other observations

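General cell machinery was also measured. The 85 genes of cytosolic ribosomal proteins held 3.46% ± 0.066 of the summed FPKM, with a median of 189 FPKM, led by Rpl41, Rps27 at 835 ± 45.6 and Rpl32 at 737 ± 48.1 FPKM. The 87 nuclear genes of oxidative phosphorylation held 1.79% ± 0.068 with a median of 88.8 FPKM, and their highest members were Cox8c, Cox4i1 at 430 ± 16.5 and Cox6b2. The 39 proteasome genes held 0.536% ± 0.010 with a median of 42.0 FPKM, led by Psmc3 at 534 ± 5.9, Psma6 at 372 ± 9.9 and Psmd8 at 279 ± 5.3 FPKM. The 17 tubulin genes held 0.667% ± 0.010, and Tuba3a, Tubb4b at 1179 ± 16.5 and Tuba3b at 885 ± 69.0 FPKM gave most of it, while the list median was 16.6 FPKM.

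Within these lists some low values belong to X-linked genes, which were picked out after the values were seen and were not tested. Among ribosomal proteins, Rps4x stood at 15.5, Rpl10 at 5.79, Rpl39 at 17.5 and Rpl36a at 29.3 FPKM against the list median of 189 FPKM. Among respiratory chain genes, Ndufa1 stood at 15.2, Ndufb11 at 9.87 and Cox7b at 2.22 FPKM against a median of 88.8 FPKM. Genes that are not X-linked were as low, such as Rpl3 at 9.14 and Rpl29 at 7.61 FPKM. The single rows of Rps6 and Rpl34 were low too, but each has a pseudogene row that was far higher.

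For Rps6 and Rpl34 a row named as a pseudogene was higher than the gene itself. Rps6 was listed at 4.87 ± 0.61 FPKM and Rps6-ps4 at 414 ± 1.2 FPKM, and Rpl34 at 11.2 ± 1.2 and Rpl34-ps1 at 267 ± 10.1 FPKM. These pairs were chosen after their values were seen, and a division of reads between near-identical copies was not tested. The 19865 rows of protein-coding genes held 96.7% ± 0.085 of the summed FPKM. The 1933 rows the authors call new genes held 2.90% ± 0.093 and the 109 rows of long non-coding RNA genes 0.158% ± 0.0073. These shares depend on which genes are among the 22221 rows, so they are not shares of all testis RNA.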
